A study of Mus musculus with 32 samples.

Results

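ATP-dependent chromatin remodelers outside the SWI/SNF family were followed through mouse embryonic stem cells (ESC) and neural cultures carrying a modified Smarce1. BAF57, its product, belongs to the SWI/SNF complexes. The set holds 37 genes of the 55573 in the tables, taken by gene symbol. They are 9 CHD ATPases, 9 ISWI ATPases and partners, 5 genes of the INO80 family with the helicases it shares, 3 other SNF2 ATPases (Smarcad1, Hells and Atrx), and 11 subunits of the NuRD deacetylase complex beyond its CHD ATPases. All 37 passed the filter on low counts in every fit. Every member lay at or above the median level of all genes tested, with a median of 157 CPM (read counts scaled to a common library size) against 5.03 CPM for all 23855 genes, as a mean over the clones.

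The cells were of strain 129S5/SvEvBrd and carried Smarce1-MD or Smarce1-MD(R42A), called MD and R42A here. The labels do not spell out MD. From general knowledge it is read as a mitotic degron, a tag that has the fused protein destroyed around the exit from mitosis. R42A is read as a tag without that activity, so both genotypes carry a tag and no untagged cells were compared. ESC were untreated and kept with LIF and serum. They comprised 4 R42A clones (A04, A10, A01, A02) and 4 MD clones (09, 30, 45, 47) with 3 libraries each. Neural cultures had spent 6 days in a medium named RHA-B and comprised the labels A04 and A10 for R42A and 09 and 30 for MD, with 2 libraries each. The 3 or 2 libraries of a clone were summed, and the clone sum was the replicate. The labels do not say whether a clone's libraries were separate cultures, so p-values measure the spread between these sums. Total counts per library ran from 38699952 to 96424443.

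Remodeler ATPases use the energy of ATP to slide, space, evict or exchange nucleosomes. ISWI enzymes space nucleosomes into regular arrays, INO80 and SRCAP act on the variant histone H2A.Z, and the CHD3, CHD4 and CHD5 proteins are alternative motors of NuRD, which joins remodelling to histone deacetylation. In mouse ESC, NuRD containing MBD3 is needed for cells to leave pluripotency, and in brain development different CHD subunits of NuRD act in progenitors and in neurons.

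Several features of the libraries bear on everything below. ESC fell into a first library series (A04, A10, 09, 30) and a second (A01, A02, 45, 47), read from runs of library numbers in the labels, and all neural libraries formed a further run, so stage and library run cannot be told apart. Neural libraries of different clone labels differed about as much as libraries of the same label: the median absolute log2 ratio between them was 0.0773 in MD and 0.0786 in R42A across labels, against 0.0756 and 0.0917 within a label. In ESC these medians ran from 0.155 to 0.240 across clones and from 0.118 to 0.177 within a clone. The neural labels therefore give a smaller spread than ESC clones do. Genes of chromosome 8 were lower as a whole in MD (median log2 change -0.45 in ESC and -0.28 in neural cells) and genes of chromosome 11 higher (0.45 and 0.48), while the medians of the other 18 chromosomes lay between -0.14 and 0.01. Smarca5, Chd9 and Gatad2a lie on chromosome 8, and Bptf and Chd3 on chromosome 11. The tissue labels held against their markers: 6 of 6 ESC markers fell and 6 of 6 neural progenitor markers rose from ESC to neural cells in each genotype. Other marker lists changed too. Of 10 neuron markers, 9 rose and 1 fell in each genotype. Of 5 endoderm markers, 5 rose in R42A and 4 in MD, and 0 fell. Of 5 smooth muscle and mesenchyme markers, 4 rose in R42A, and 3 rose and 2 fell in MD. Of 5 glia markers, 3 rose and 1 fell in R42A, and 4 rose and 1 fell in MD. Of 5 endothelium and blood markers, 2 rose and 3 fell in each. Smarce1 RNA was present in all groups, at 95.3 to 129 CPM in R42A ESC, 112 to 125 CPM in MD ESC, 230 to 233 CPM in R42A neural cells and 290 to 299 CPM in MD neural cells. The tag acts on the protein, so this RNA does not check the labels.

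To show what stands in front of the genes the results turn on, promoters were taken from RefSeq (GRCm38.p6; 250 bases before to 50 after the start). The table matched 27 of the 37 members by symbol, and the first entry was used where there were several. The promoters shown are those of Smarca1 and Smarca5, the alternative ISWI ATPases, of Hells, a remodeler of dividing cells, and of Chd5, the NuRD ATPase of neurons. They lie at chrX:47892564-47892863 (minus strand) for Smarca1, chr8:80739410-80739709 (minus strand) for Smarca5, chr19:38930740-38931039 (plus strand) for Hells, chr4:152338401-152338700 (plus strand) for Chd5. Capitals mark, on either strand, the letters GGGCGG of a GC box, the box CCAAT, the box TATAAA, and the E2F-like string TTTNNCGC.
Smarca1: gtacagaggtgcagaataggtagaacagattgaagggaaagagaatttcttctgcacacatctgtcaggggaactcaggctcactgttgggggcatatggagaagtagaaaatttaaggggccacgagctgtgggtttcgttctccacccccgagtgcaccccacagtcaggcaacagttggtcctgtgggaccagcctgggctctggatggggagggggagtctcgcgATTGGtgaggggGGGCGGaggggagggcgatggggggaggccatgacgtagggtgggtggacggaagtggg
Smarca5: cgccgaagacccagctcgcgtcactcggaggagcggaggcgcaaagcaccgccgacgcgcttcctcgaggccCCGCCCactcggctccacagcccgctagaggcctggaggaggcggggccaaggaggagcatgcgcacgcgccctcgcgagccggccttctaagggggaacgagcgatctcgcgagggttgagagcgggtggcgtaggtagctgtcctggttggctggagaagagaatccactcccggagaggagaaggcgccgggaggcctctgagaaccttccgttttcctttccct
Hells: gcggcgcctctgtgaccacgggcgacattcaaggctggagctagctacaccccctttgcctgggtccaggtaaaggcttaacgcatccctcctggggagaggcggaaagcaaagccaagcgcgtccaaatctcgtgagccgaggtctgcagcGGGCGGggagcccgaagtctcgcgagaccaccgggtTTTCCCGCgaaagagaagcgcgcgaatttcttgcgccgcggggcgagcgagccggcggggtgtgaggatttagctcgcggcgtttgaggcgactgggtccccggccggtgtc
Chd5: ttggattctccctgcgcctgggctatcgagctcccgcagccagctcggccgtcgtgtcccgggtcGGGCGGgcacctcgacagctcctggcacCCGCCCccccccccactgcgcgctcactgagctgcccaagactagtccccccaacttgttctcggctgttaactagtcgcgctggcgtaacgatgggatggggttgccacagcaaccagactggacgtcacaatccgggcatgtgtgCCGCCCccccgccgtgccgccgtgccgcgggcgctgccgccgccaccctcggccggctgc
GGGCGG, the core of a GC box, was found in 24 of the 27 member promoters and in 35.7% of all 32851 promoters in the table. CCAAT was in 15 of 27 (37.4% of all), TATAAA in 3 of 27 (13.6% of all), and TTTNNCGC, a loose form of the E2F site that does not overlap the other motifs in Hells, in 1 of 27 (5.17% of all), which was Hells. The member promoters held a median of 26 CpG (range 5 to 50), against 7 for all promoters. Smarca1 and Smarca5 held 9 and 32 CpG. A match is a string of letters, and no binding was measured.

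**Figure D1:**
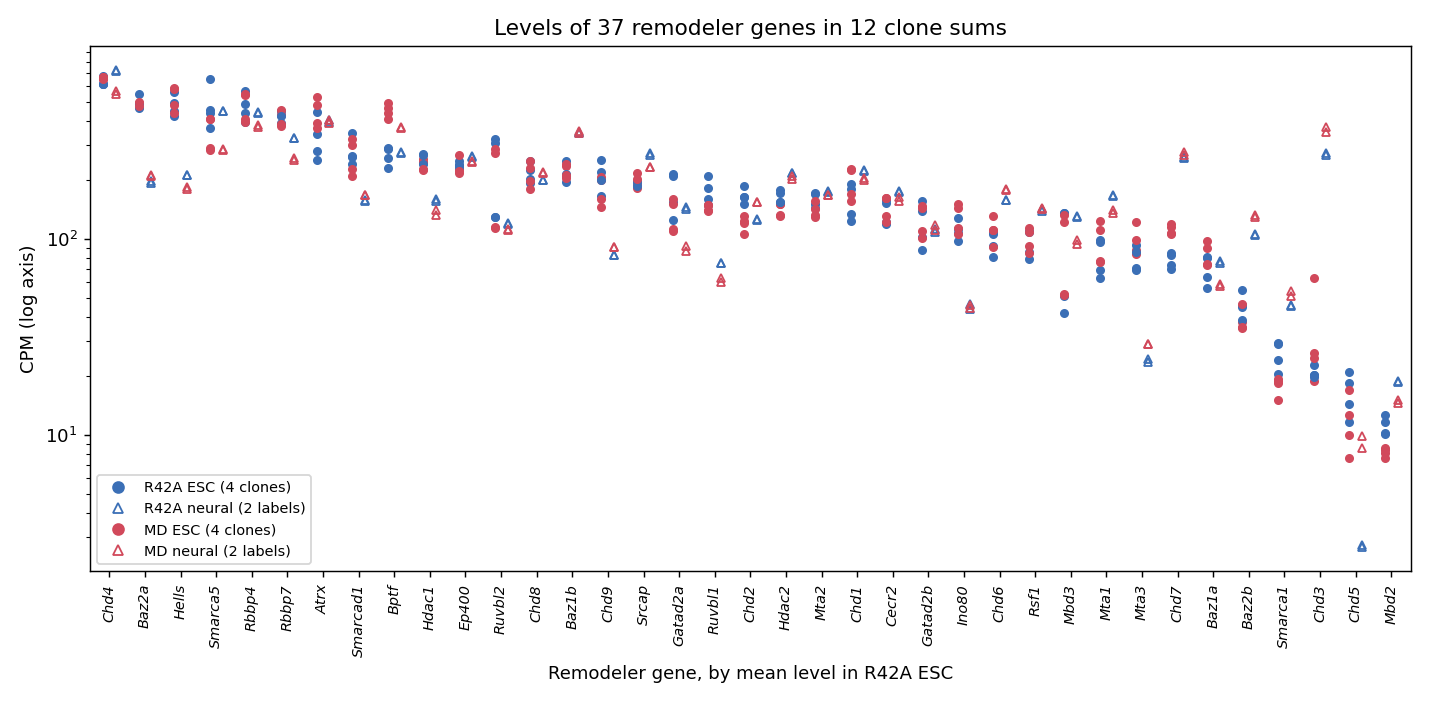
Levels of the 37 remodeler genes as CPM on a log axis, with 1 point per clone sum (circles, 4 ESC clones a genotype; triangles, 2 neural labels a genotype). Chd3 moved from about the level of Smarca1 in ESC to 267 to 371 CPM in neural cells, while Chd4 stayed between 548 and 730 CPM in all 12 sums.

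Set against exon length, Rbbp7, a histone-binding subunit of NuRD, was the most abundant member in every group, at 145 ± 8.80 CPM per kb in R42A ESC and 87.7 ± 1.66 CPM per kb in MD neural cells (SD; n = 4 clones and n = 2 labels). Chd4 ranked 3 of 37 in R42A ESC and 2 of 37 in the other groups, with 78.8 ± 3.75 CPM per kb in R42A ESC. Chd5 ranked last of the 37 in every group. Chd3 ranked 36 of 37 in R42A ESC at 2.45 ± 0.167 CPM per kb and rank 7 in MD neural cells at 42.7 ± 1.77 CPM per kb.

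The first comparison follows the remodelers from ESC to neural cells within each genotype. In R42A, 15 members rose and 16 fell (31 of 37), and in MD 14 rose and 20 fell (34 of 37), when neural sums were set against ESC of the same labels in edgeR. Most genes changed as well: 78.3% of all genes tested were called in R42A and 81.3% in MD. The members' median absolute log2 change was 0.50 in R42A and 0.60 in MD, against 1.14 and 1.28 over all genes tested.

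These changes were also set against ESC of the second library series, an alternative chosen after the data were seen. 21 members had the same call in both genotypes against both series, 11 higher and 10 lower in neural cells. That is 56.8% of the members, beside 57.9% of the 22921 genes tested in all 4 comparisons. With the neural libraries of a genotype summed to 1 sample, 20 of the 21 were still called in both genotypes, and 18 were called with each label left out in turn. Ruvbl2 was lost in both ways. Rsf1 and Srcap lost the MD call without label 09, with log2 changes of 0.24 and 0.19. A further 9 members (Chd1, Chd2, Chd4, Chd8, Bptf, Baz1a, Atrx, Mbd3 and Gatad2b) were called in opposite directions among the 4 comparisons. The share of all genes with such opposite calls is not given here, so this count is not read as particular to the members.

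**Figure D2:**
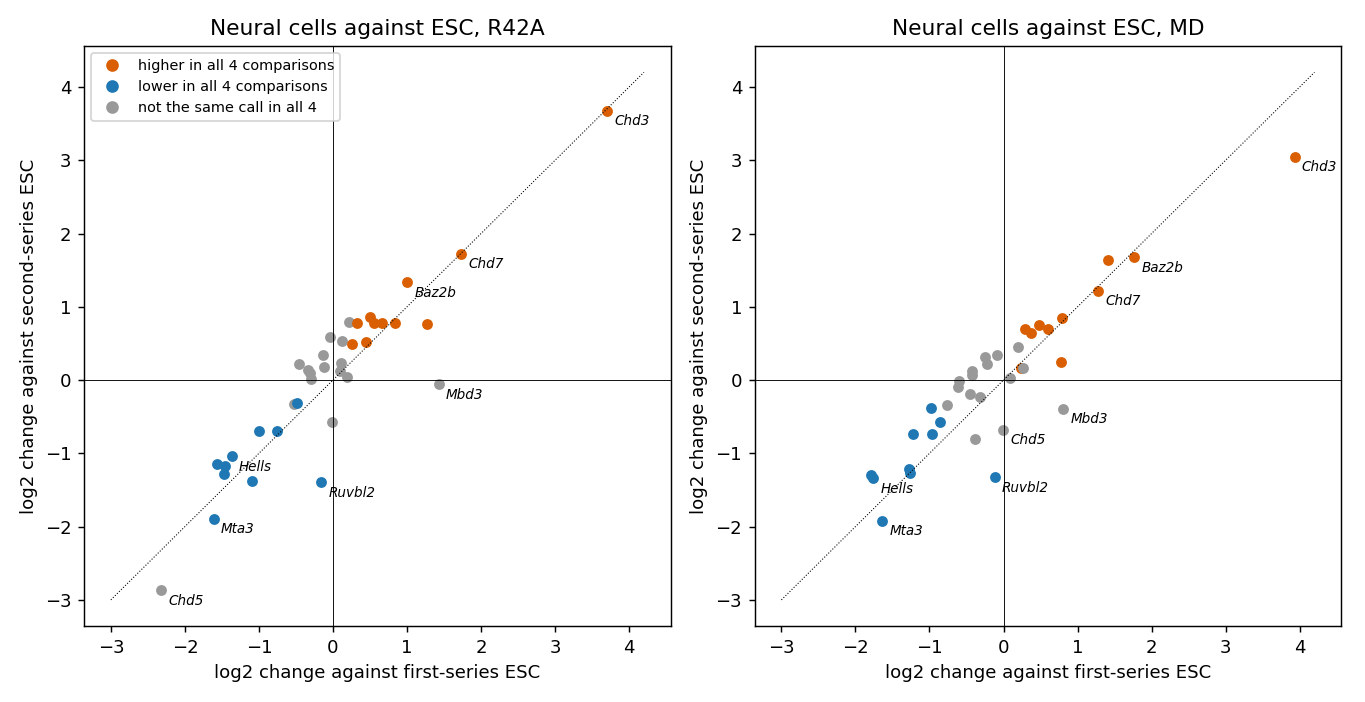
Log2 change from ESC to neural cells of the 37 members in R42A (left) and MD (right), against first-series ESC (x axis) and second-series ESC (y axis), with the dotted line marking equal changes. Chd3 stands apart at 3.05 to 3.93, and Mbd3 and Ruvbl2 lie far from the line.

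Among the CHD ATPases, Chd3 (ENSMUSG00000018474.17, chr11:69343273-69369406 in mm10) rose most in both genotypes. In ESC it stood at 20.1, 20.1, 19.7 and 22.8 CPM in R42A (clones A04, A10, A01, A02) and at 26.0, 18.7, 62.8 and 24.7 CPM in MD (09, 30, 45, 47). In neural cells it stood at 276 and 267 CPM in R42A and 350.2 and 371 CPM in MD. All 4 neural sums lay above all 8 ESC sums, and MD clone 45 lay above the other ESC clones. The log2 change was 3.71 ± 0.15 (SE; adjusted p = 6.21e-07 in edgeR) in R42A and 3.93 ± 0.15 (adjusted p = 4.42e-07 in edgeR) in MD, and 3.68 and 3.05 against the second series. In bulk RNA a change in the number of cells of a type and in the RNA per cell cannot be told apart.

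Chd7, an ATPase of the CHD6 to CHD9 branch known for its role in CHARGE syndrome and in neural crest, rose from 77.7 ± 7.11 to 261 ± 2.23 CPM in R42A and from 112 ± 6.57 to 272 ± 7.41 CPM in MD (SD; n = 4 clones and n = 2 labels). The log2 changes were 1.73 ± 0.07 and 1.28 ± 0.07. Chd6, of the same branch, rose by 0.50 ± 0.04 and 0.60 ± 0.04, and by 0.86 in R42A against the second series. Chd9 moved the other way, from 210 ± 36.2 to 82.8 ± 0.210 CPM in R42A and from 178 ± 29.4 to 91.1 ± 0.0306 CPM in MD, with log2 changes of -1.56 ± 0.06 and -1.23 ± 0.06; the MD value was -0.74 against the second series. Chd8, whose human gene is linked to autism, had log2 changes of -0.29 and -0.22 against the first series, both called, but of 0.02 and 0.21 against the second; the MD call was lost without label 09 (-0.28) or 30 (-0.16).

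Chd1, which binds H3K4 trimethylation at active promoters and keeps mouse ESC chromatin open, had log2 changes of 0.22 in R42A and -0.24 in MD against the first series, and of 0.79 and 0.31 against the second. Its relative Chd2 had changes of -0.53 in R42A and 0.20 in MD, or -0.33 and 0.45 against the second series. The MD calls of Chd1 and Chd2 were both lost without label 09 (-0.24 and 0.17) or 30 (-0.25 and 0.24). Chd4, the main NuRD motor of progenitors, had changes of 0.11 in R42A, not called, and -0.32 in MD. Against the second series these were 0.23 and -0.23, both called.

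Chd5 (ENSMUSG00000005045.16, chr4:152338651-152390194 in mm10) fell in R42A from ESC to neural cells. Its ESC sums were 11.6, 14.3, 18.3 and 20.99 CPM in R42A and 7.57, 9.99, 12.5 and 17.0 CPM in MD, and its neural sums 2.65 and 2.73 CPM in R42A and 8.54 and 9.86 CPM in MD. Only the R42A neural sums lay below all ESC sums. The log2 change was -2.32 ± 0.18 in R42A (adjusted p = 1.62e-05 in edgeR). In MD it was -0.01 ± 0.17 (adjusted p = 0.956 in edgeR), whereas against second-series MD ESC it was -0.68 and passed.

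Of the ISWI group, the ATPase Smarca1 (SNF2L) rose by 0.84 ± 0.15 in R42A and 1.41 ± 0.15 in MD on the log2 scale. Its ESC sums were 29.2, 20.4, 29.0 and 24.2 CPM in R42A and 19.2, 18.3, 18.8 and 15.0 CPM in MD, against 45.5 and 46.2 CPM in R42A neural cells and 53.8 and 51.3 CPM in MD neural cells. The groups did not overlap between stages. Smarca5 (SNF2H), the ISWI ATPase of dividing cells, had 439 to 656 CPM in first-series R42A ESC and 447 and 451.5 CPM in R42A neural cells, and its change there was not called against either series (-0.33 and 0.13). In MD it had a log2 change of -0.60 ± 0.15 against the first series, which was called but was lost without label 09 (-0.61) or 30 (-0.59), and of -0.01 against the second series.

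The Baz2 paralogs moved in opposite directions. Baz2a (TIP5), which targets ISWI to ribosomal DNA, fell from 490, 550.3, 485 and 464 CPM to 197 and 192 CPM in R42A and from 485 ± 14.2 to 210 ± 1.14 CPM in MD, with log2 changes of -1.47 ± 0.07 and -1.27 ± 0.07. Baz2b rose from 46.1 ± 6.73 to 105 ± 0.406 CPM and from 38.7 ± 5.26 to 131 ± 2.08 CPM, with log2 changes of 1.01 ± 0.09 and 1.76 ± 0.09. Baz1b (WSTF), a partner of Smarca5 lost in Williams syndrome in humans, rose by 0.56 ± 0.08 and 0.48 ± 0.08, the MD value being 0.75 against the second series. Rsf1, the partner of Smarca5 in the RSF complex, rose by 0.32 ± 0.05 and 0.29 ± 0.05, or by 0.78 and 0.70 against the second series. Bptf, the large subunit of NURF, had log2 changes of -0.12 in R42A and -0.45 in MD against the first series, and of 0.17 and -0.19 against the second. The R42A call was lost without A04, 09 or 30, at -0.12 in each case, and with each chromosome scaled separately, at 0.03; the MD change was -0.29 on that scale. Baz1a (ACF1), a spacing partner of Smarca5, fell by 0.76 ± 0.05 on the log2 scale in MD and had a change of -0.13 in R42A, not called. Against the second series these were -0.34 and 0.34, both called. Cecr2, the bromodomain partner of ISWI in the CERF complex, was called in R42A at 0.12, a call lost with any 1 of the 4 labels left out, and was not called in MD at -0.09. Against the second series its changes were 0.53 and 0.34, both called.

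In the INO80 group the ATPase Ino80 fell from 128, 112, 107 and 97.1 CPM to 46.6 and 43.8 CPM in R42A and from 129 ± 21.9 to 44.9 ± 1.10 CPM in MD, with log2 changes of -1.46 ± 0.07 and -1.79 ± 0.07. Ruvbl1, an AAA+ helicase shared by the INO80, SRCAP and TIP60 complexes, fell by 1.09 ± 0.05 and 1.26 ± 0.05 on the log2 scale. Its partner Ruvbl2 stood at 130 and 129 CPM in first-series and 308 and 325 CPM in second-series R42A ESC, at 115 and 114 CPM and 273 and 288 CPM in MD ESC, and between 111 and 121 CPM in the 4 neural sums. The ESC series thus differed from each other more than the first series differed from neural cells. Its log2 changes were -0.16 and -0.12 against the first series and -1.40 and -1.33 against the second, and the first-series calls were lost without label 09 (-0.15 in R42A and -0.12 in MD) or 30 (-0.16 and -0.12), and the MD call also with the clone label as a block. Srcap, which loads H2A.Z, rose by 0.45 ± 0.05 in R42A and 0.24 ± 0.05 in MD, the MD value being 0.16 against the second series. Ep400 was not called in either genotype.

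Among the other SNF2 ATPases, Hells (LSH; ENSMUSG00000025001.11, chr19:38930915-38971051 in mm10), needed for DNA methylation of repeats in mouse, stood at 562, 495, 451 and 422 CPM in R42A ESC and 586, 585, 441 and 484 CPM in MD ESC. In neural cells it stood at 212 and 211 CPM in R42A and at 184 and 181 CPM in MD. All neural sums lay below all ESC sums, with log2 changes of -1.37 ± 0.06 (adjusted p = 1.001e-06 in edgeR) and -1.76 ± 0.06 (adjusted p = 3.05e-07 in edgeR). Of 10 markers of dividing cells, 8 fell and 0 rose in R42A, and 8 fell and 1 rose in MD. The mean of Mki67 went up, from 472 to 627 CPM in R42A and from 348 to 481 CPM in MD. Summed marker levels were 4797 to 4892 CPM in R42A ESC and 4690 to 4954 CPM in MD ESC. In neural cells they were 3626 to 3767 CPM in R42A and 3331 to 3469 CPM in MD. The part of these markers in the fall of Hells was not tested. Smarcad1, an ATPase that helps restore silent chromatin after replication, fell by 1.01 ± 0.12 and 0.98 ± 0.12, and its MD change was -0.38 against the second series. Atrx, which deposits H3.3 in repeats with DAXX, was not called in R42A at -0.04, but was called at 0.58 against the second series. In MD its change of -0.42 was lost without label 09 (-0.52) or 30 (-0.32) or with each chromosome scaled separately (-0.24), and was 0.07 against the second series.

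Among the NuRD subunits, Mta1 and Mta3 moved in opposite directions, as did the deacetylases Hdac1 and Hdac2. Mta1 rose by 1.28 ± 0.05 in R42A and 0.77 ± 0.05 in MD, or by 0.77 and 0.25 against the second series, while Mta3 fell by 1.61 ± 0.05 and 1.64 ± 0.05 on the log2 scale. Mta3 had 69.7 to 92.5 CPM in R42A ESC and 83.7 to 121 CPM in MD ESC, against 23.4 and 24.4 CPM and 29.1 and 29.0 CPM in neural cells. Hdac1 fell by 0.76 ± 0.06 and 0.97 ± 0.06, and Hdac2 rose by 0.26 ± 0.05 and 0.37 ± 0.05, or by 0.49 and 0.64 against the second series. Mta2 had called changes of 0.19 ± 0.04 and 0.27 ± 0.04, but of 0.04, not called, and 0.16 against the second series, and the R42A value was 0.12 with each chromosome scaled separately. Rbbp7 fell by 0.48 ± 0.05 and 0.86 ± 0.05, or by 0.31 and 0.57 against the second series. Mbd2, the subunit that binds methylated DNA, rose by 0.66 ± 0.12 and 0.79 ± 0.12 from a low level of 7.62 to 12.6 CPM over the 8 ESC sums.

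Mbd3 (ENSMUSG00000035478.14, chr10:80392539-80399550 in mm10), which takes the place of Mbd2 in an alternative NuRD, depended on the ESC used. It stood at 51.2 and 41.9 CPM in first-series and 136 and 135 CPM in second-series R42A ESC, at 52.5 and 51.9 CPM and 122 and 133 CPM in MD ESC, and at 129 and 130.3 CPM in R42A and 94.5 and 98.7 CPM in MD neural cells. Against the first series the log2 changes were 1.43 ± 0.09 and 0.81 ± 0.09, and against the second -0.06 and -0.39. Gatad2b, a subunit that bridges MBD proteins and the CHD ATPase, had changes of -0.46 and -0.42 against the first series and of 0.22 and 0.12 against the second. Rbbp4 had changes of -0.31 and -0.61, and of 0.09 and -0.10 against the second series; without clone A04 the R42A value was -0.20, and with each chromosome scaled separately -0.17. Gatad2a was not called in R42A, and in MD had -0.39, which was lost without label 09 (-0.37) or 30 (-0.41) and was -0.80 against the second series.

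**Figure D3:**
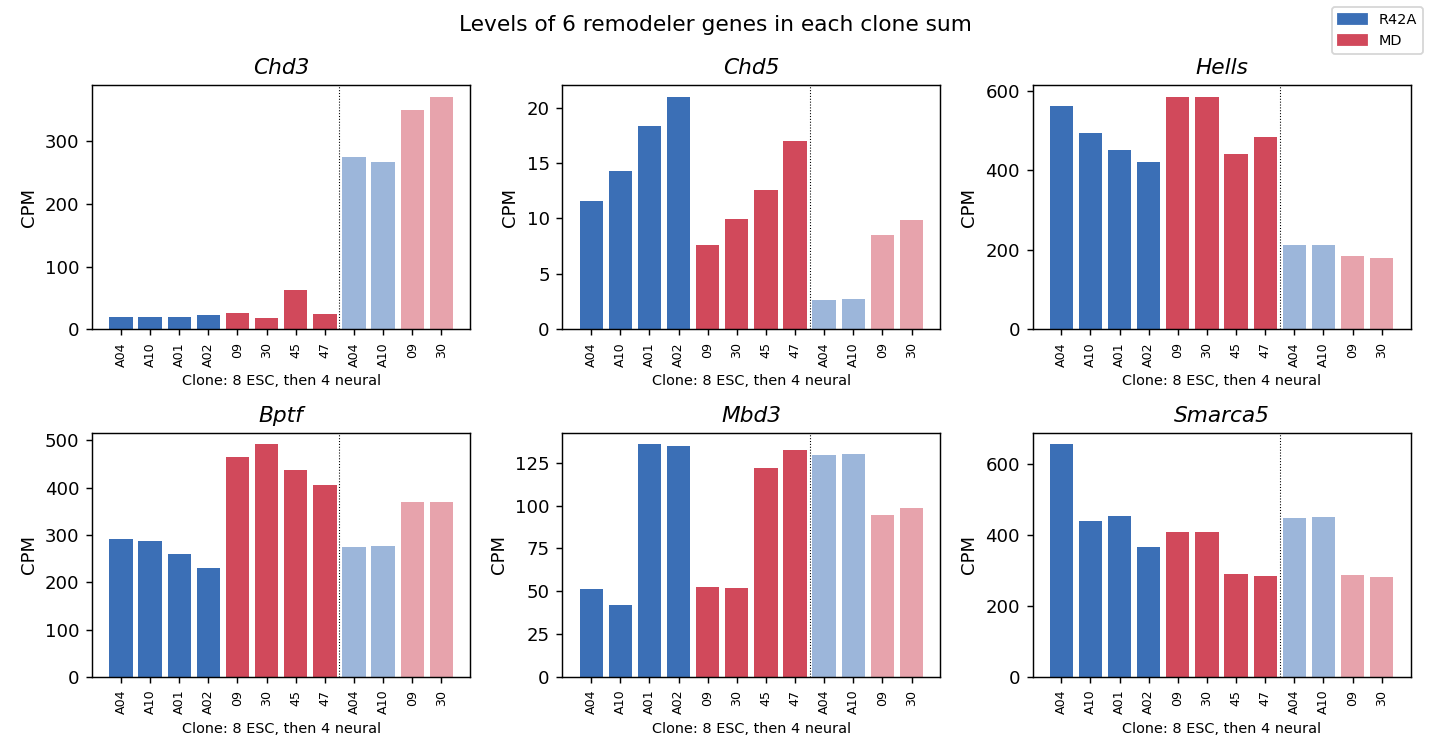
CPM of Chd3, Chd5, Hells, Bptf, Mbd3 and Smarca5 in each clone sum, with bars from 0, R42A in blue and MD in red, ESC in full and neural cells in pale colour, split by the dotted line. In Mbd3 the second-series ESC clones (A01, A02, 45, 47) stand at 122 to 136 CPM and the first-series clones at 41.9 to 52.5 CPM.

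The second comparison asks how MD differed from R42A in ESC, with library series as a term in the fit. 7 members were higher and 11 lower in MD, 18 of 37 (48.6%), against 36.5% of all genes tested. The sizes were small: the median absolute log2 change was 0.20 for the members and 0.28 for all genes tested, and the changes ran from -0.53 to 0.75. Members had a median of 157 CPM against 5.03 CPM for all genes. Shares and sizes were not matched for level, here or in the other comparisons. In 18 members, 7 above and 11 below, MD and R42A clones did not overlap on the same side within each series, which held for 40.2% of all 23855 genes. Of the 18 calls, those of Bptf and Chd7 held in all 17 other ways of fitting these ESC, which include each series alone. 14 of the 18 held with each clone left out in turn, and 13 with each chromosome scaled separately.

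Bptf (ENSMUSG00000040481.17, chr11:107033081-107132127 in mm10) was the member most raised. It stood at 293, 289, 259 and 231 CPM in R42A and at 466, 492, 437 and 407 CPM in MD ESC, with every MD clone above every R42A clone. The log2 change was 0.75 ± 0.05 (adjusted p = 4.21e-05 in edgeR). Genes of its chromosome were higher as a whole by 0.45, and with each chromosome scaled separately the change was 0.29 and still called. Chd3, on the same chromosome, had a change of 0.60 ± 0.29 that missed the threshold (adjusted p = 0.136 in edgeR) and was 0.18 without clone 45.

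Chd7 was higher in all 4 MD clones (107, 106, 120 and 114 CPM) than in all 4 R42A clones (82.6, 70.1, 84.9 and 73.4 CPM), with a log2 change of 0.52 ± 0.07 (adjusted p = 0.000553 in edgeR). Chd1 was higher by 0.32 ± 0.05. Chd2, its nearest relative, was lower by -0.47 ± 0.07, at 187, 164, 164 and 151 CPM in R42A and 124, 131, 121 and 106 CPM in MD. Chd1 overlapped between genotypes over the 8 clones but was higher in MD within each series. Chd5 was lower by -0.49 ± 0.13, a call lost without A10 (-0.36), 09 (-0.40) or A02 (-0.46).

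On chromosome 8, Smarca5, Gatad2a and Chd9 were lower by -0.47 ± 0.12, -0.40 ± 0.07 and -0.24 ± 0.07. Relative to the chromosome's own median of -0.45 these were -0.01, 0.06 and 0.21. With each chromosome scaled separately they turned to 0.01, 0.07 and 0.23, and of these Chd9 was called as higher. The Chd9 call on the plain scale was lost without A04 (-0.22), 09 (-0.24), 30 (-0.26), A01 (-0.18) or 47 (-0.20). Smarca5 stood at 656, 439, 452 and 367 CPM in R42A and 410, 409, 291 and 284 CPM in MD, with clone A04 high.

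Elsewhere Smarca1 was lower in MD by -0.53 ± 0.13, with no overlap between genotypes (20.4 to 29.2 CPM in R42A and 15.0 to 19.2 CPM in MD), and Mbd2 lower by -0.45 ± 0.10 (10.1 to 12.6 and 7.62 to 8.55 CPM). Hdac2 was lower by -0.23 ± 0.04, with 154 to 178 CPM in R42A and 131.5 to 150.4 CPM in MD. Atrx was higher by 0.43 ± 0.09, Mta3 by 0.29 ± 0.07, Baz1a by 0.26 ± 0.05 and Mta1 by 0.23 ± 0.05. Ruvbl1 was lower by -0.27 ± 0.08, a call lost without clone 45 (-0.24) or 47 (-0.23) or with each chromosome scaled separately. Ruvbl2 and Mta2 were each lower by -0.18, and the Mta2 call was lost without A04 (-0.18), 09 (-0.18), A01 (-0.17), A02 (-0.18) or 47 (-0.14).

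Marker genes of the cultures also differed between genotypes in ESC. Neural progenitor markers had summed levels of 31.0 to 46.5 CPM in R42A and 63 to 111.5 CPM in MD, with 1 of 6 higher and 1 lower. Of 6 ESC markers, 5 were lower in MD, with summed levels of 3889 to 5299 CPM in R42A and 3353 to 4162 CPM in MD. Of 5 markers of smooth muscle and mesenchyme, 4 were higher in MD and none was at 0 in either group, with summed levels of 6.96 to 25.9 CPM in R42A and 58.9 to 107 CPM in MD. Of 5 markers of endothelium and blood, 3 were higher and 1 lower (67.1 to 116 CPM and 106 to 159 CPM). Most of these sums was Pecam1 alone, with means of 80.5 CPM in R42A and 124.5 CPM in MD ESC. The part of all these markers in the remodeler changes was not tested.

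**Figure D4:**
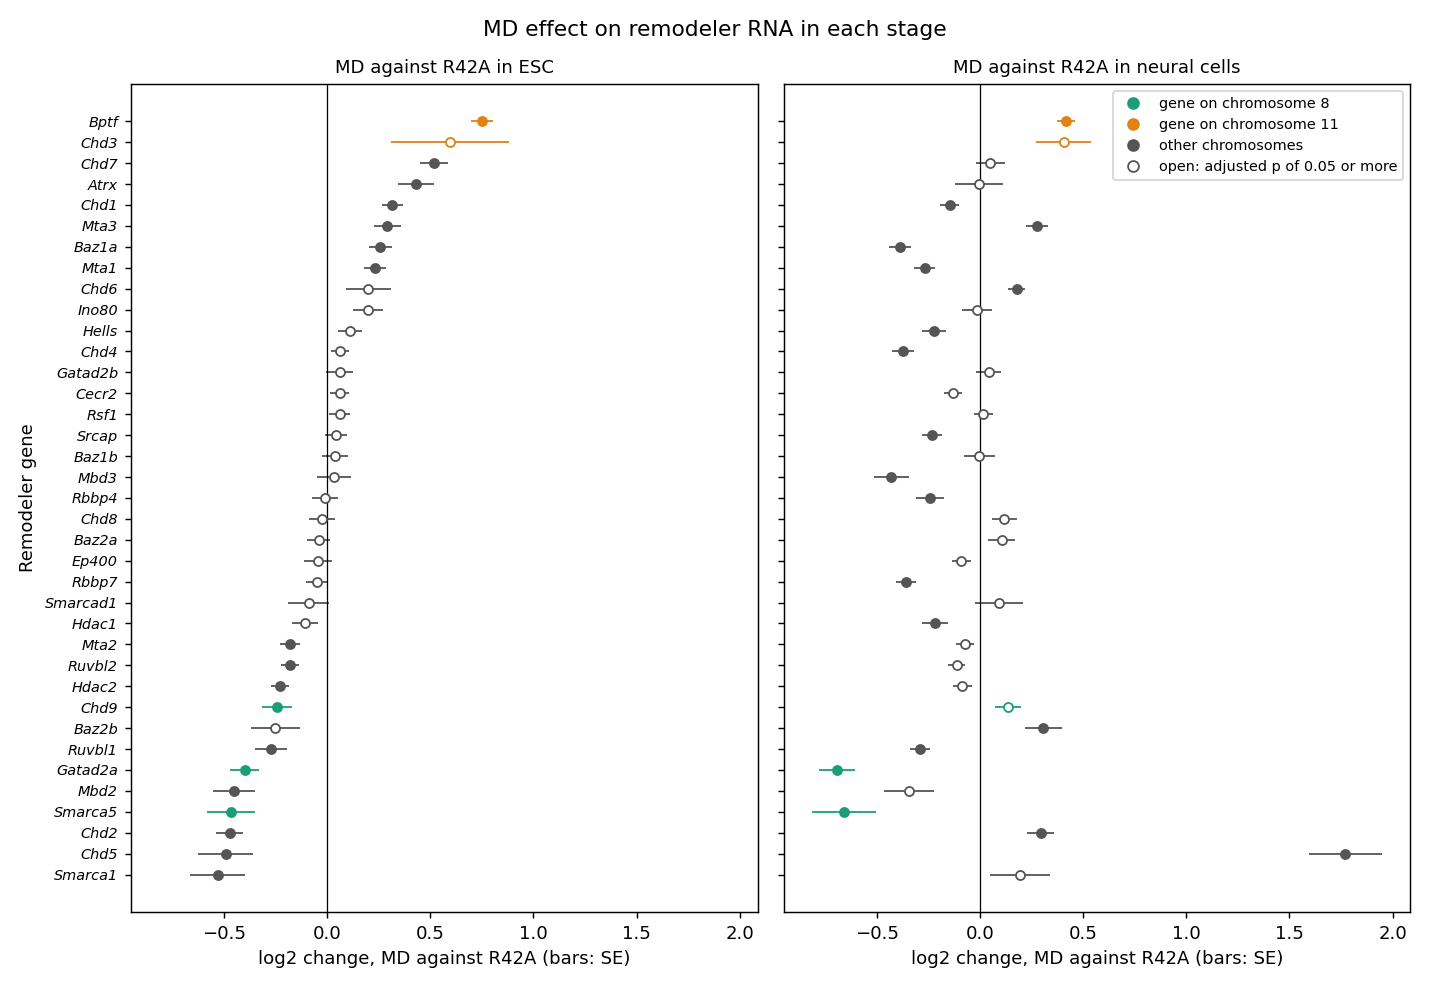
Log2 change between MD and R42A in ESC (left) and neural cells (right) for the 37 members ordered by the ESC value, with bars for SE, filled points for adjusted p under 0.05, green for chromosome 8 and orange for chromosome 11. Bptf is highest in ESC at 0.75, and Chd5 stands apart in neural cells at 1.77.

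The third comparison sets MD against R42A in neural cells. 6 members were higher and 13 lower in MD (19 of 37), against 33.7% of all genes tested. These calls rest on a spread shared by the 4 groups, which takes in the ESC sums. Neural sums fitted alone, with their small spread between labels, called 30 members, beside 13643 of all 20285 genes tested in that fit. Leaving out a label removed its ESC and neural sums together, so fewer sums were left to set the spread. Without label 09 the counts were 3 higher and 1 lower, without label 30 they were 2 and 0, and without A04 or A10 they were 9 and 14 or 8 and 14. With the libraries of a genotype summed, edgeR called 0 of 37 members (10 at an unadjusted p under 0.05) and 0 of all genes. With each label left out in turn, 2 of the 19 calls held, those of Chd5 and Bptf. Chd5 also held its call under 11 other fits, but not with the libraries summed (1.76, adjusted p = 0.0793 in edgeR).

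Chd5 was higher in MD neural cells by 1.77 ± 0.18 (adjusted p = 0.000541 in edgeR), with the values given above, and by 1.86 without 09 and 1.67 without 30. Neuron markers were also higher in MD neural cells, 10 of 10. Their summed level was 790 to 812 CPM in R42A and 2119 to 2142 CPM in MD neural cells. In ESC it was 342 to 503 CPM in R42A and 311 to 403 CPM in MD. Between stages Chd5 and these markers parted: in R42A, 9 of 10 neuron markers rose and 1 fell, while Chd5 changed by -2.32. No marker on that list was at 0 in neural cells. Neural progenitor markers had summed levels of 1092 to 1114 CPM in R42A and 925 to 928 CPM in MD neural cells, with 1 of 6 higher and 1 lower in MD. Other lists moved as well, with summed levels in R42A and MD neural cells of 201 to 210.5 and 73.2 to 75.6 CPM for smooth muscle and mesenchyme (3 of 5 higher, 2 lower in MD), 113 to 126 and 74.3 to 79.6 CPM for glia (1 of 5 higher, 1 lower), 14.9 to 16.9 and 11.9 to 12.1 CPM for endothelium and blood (2 of 5 higher, 1 lower) and 97.6 to 113 and 57.5 to 61.9 CPM for endoderm (0 of 5 higher, 1 lower). The part of these markers in the level of Chd5 and of the members below was not tested.

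Chd4 and the 11 NuRD subunits beyond the CHD ATPases were lower or not called, apart from Mta3. Gatad2a was lower by -0.69 ± 0.09 (146 and 142 CPM in R42A, 86.7 and 91.5 CPM in MD), or by -0.37 with each chromosome scaled separately (it lies on chromosome 8). Lower too were Mbd3 by -0.43 ± 0.08, Chd4 by -0.37 ± 0.05 (730 and 717 CPM against 548 and 571 CPM), Rbbp7 by -0.36 ± 0.05, Mta1 by -0.27 ± 0.05, Rbbp4 by -0.24 ± 0.07 and Hdac1 by -0.22 ± 0.06. Mta3 was higher by 0.28 ± 0.05. The MD and R42A labels did not overlap for these 8 genes, as for 32 of the 37 members and 75.7% of all genes, and each of these calls was lost without 09 and without 30, with changes that kept their direction. Of the 11 NuRD subunits beyond the CHD ATPases, 1 was higher and 6 were lower, beside 17.4% and 16.3% of all genes tested, and their median log2 change was -0.24, beside 0.00 for all genes tested. The other NuRD motors did not follow Chd4. Chd5 was higher by 1.77, and Chd3 had a change of 0.41, not called, or of -0.04 with each chromosome scaled separately.

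Smarca5 was lower by -0.66 ± 0.15 in MD neural cells (447 and 451.5 CPM against 288 and 283 CPM), which was -0.34 and still called with each chromosome scaled separately. Bptf was higher by 0.42 ± 0.04 and turned to -0.03, not called, on that scale. Baz1a was lower by -0.39 ± 0.05 and Baz2b higher by 0.31 ± 0.09. Hells was lower by -0.22 ± 0.06, a call lost with each chromosome scaled separately (-0.08). Of 10 markers of dividing cells, 8 were lower and 1 was higher in MD neural cells. Ruvbl1 and Srcap were lower by -0.29 ± 0.05 and -0.23 ± 0.05. Chd2 was higher by 0.29 ± 0.06 and Chd6 by 0.18 ± 0.04, while Chd1 was lower by -0.15 ± 0.04, a call lost with each chromosome scaled separately (-0.12). Chd3 had a change of 0.41 ± 0.13, just short of the threshold (adjusted p = 0.0521 in edgeR), and of -0.04 with each chromosome scaled separately.

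The difference between the MD effects in the 2 stages was tested within the fit of the 4 groups. It passed for 14 members, with the MD effect more positive in neural cells for 4 and more negative for 10, against 22.9% of all genes tested. With the clone label as a block 12 were called. No member was called without label 09 or without label 30, nor with the neural libraries summed (12 at an unadjusted p under 0.05). With labels as replicates Chd5 had the widest difference, 2.31 ± 0.24 on the log2 scale (adjusted p = 0.00141 in edgeR). Chd2 and Chd1, whose MD effects changed sign between stages in opposite ways, differed by 0.73 ± 0.09 and -0.46 ± 0.06. Baz1a and Mta1, higher in MD ESC and lower in MD neural cells, differed by -0.63 ± 0.07 and -0.51 ± 0.07. Against second-series ESC the differences of these 5 genes were 2.19, 0.78, -0.48, -0.68 and -0.52, each called. Baz2b, with a difference of 0.76, was at 0.34 and not called against that series, Cecr2 was lost at -0.19, and Mbd3 went from -0.62 to -0.34. The Hells and Rbbp7 differences were lost with each chromosome scaled separately (-0.25 and -0.23).

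Paralog ratios were taken as log2 ratios of CPM per kb, for 13 pairs. In ESC the design allows no p below 0.0556 in an exact two-sided permutation test within library series (36 assignments), so no pair could pass. 6 pairs reached that smallest p (adjusted p = 0.120 for each in the same exact permutation test). Of these, Mta1/Mta2 and Mta3/Mta2 had groups that did not overlap: Mta1/Mta2 was -0.73, -0.80, -0.40 and -0.41 in R42A and -0.37, -0.39, 0.05 and 0.03 in MD, and Mta3/Mta2 was -1.46, -1.43, -1.38 and -1.25 in R42A and -1.01, -0.97, -1.04 and -0.61 in MD. Chd7/Chd8, Gatad2b/Gatad2a, Mbd2/Mbd3 and Chd5/Chd4 were the others, with mean differences between MD and R42A of 0.55, 0.46, -0.48 and -0.56. Gatad2a lies on chromosome 8, and with each chromosome scaled separately the ESC changes of Gatad2b and Gatad2a were both 0.07.

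Between stages 6 pairs are given as linear ratios of CPM per kb. Chd3/Chd4 went from a ratio of 0.0310 in R42A ESC to 0.356 in R42A neural cells and from 0.0424 to 0.612 in MD. Chd5/Chd4 went from 0.0210 to 0.00311 in R42A and from 0.0143 to 0.0137 in MD. Hdac2/Hdac1 went from 0.495 to 1.06 and from 0.454 to 1.16. Baz2b/Baz2a went from 0.0561 to 0.329 and from 0.0484 to 0.378, and Smarca1/Smarca5 from 0.0691 to 0.130 and from 0.0657 to 0.234. Mta3/Mta2 went from 0.384 to 0.105 and from 0.532 to 0.134. Except for Chd5/Chd4 in MD, the neural values of these 6 pairs lay outside the range of all 4 ESC clones of their genotype. Of the remaining pairs, Rbbp7/Rbbp4, Mta1/Mta2, Baz1a/Baz1b and Chd7/Chd8 also lay outside it in both genotypes. Mbd2/Mbd3, Gatad2b/Gatad2a and Ruvbl1/Ruvbl2 lay inside it in both. No test was run on the change of a ratio between stages.

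**Figure D5:**
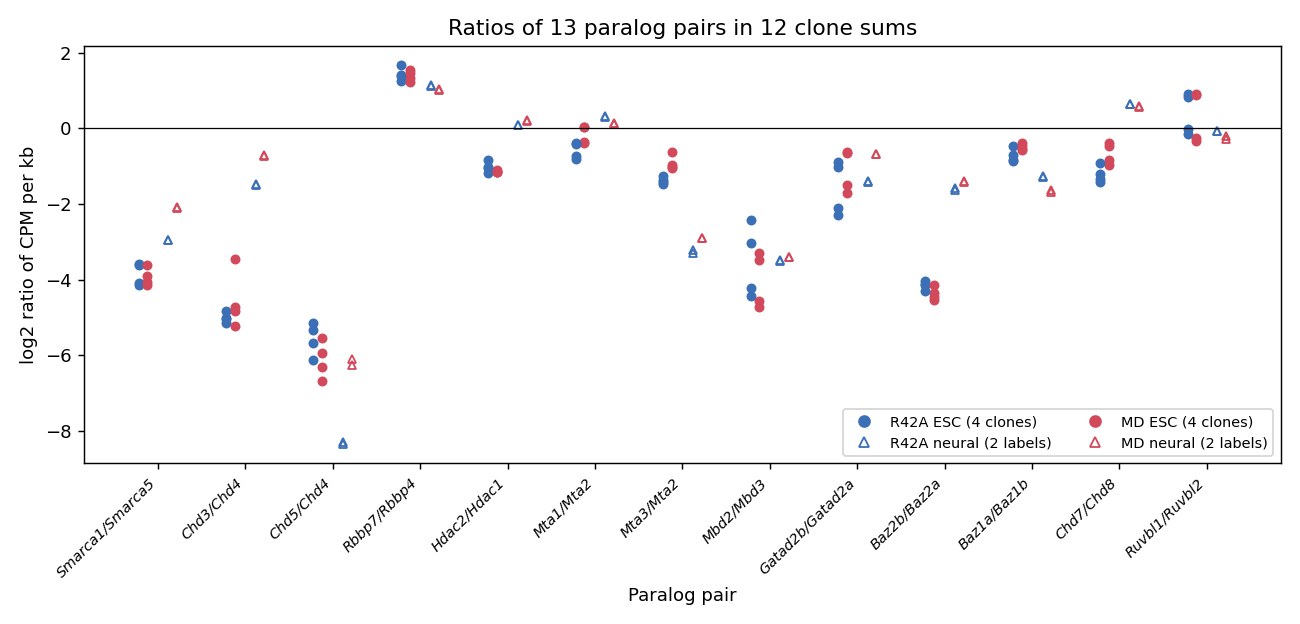
Log2 ratios of CPM per kb for 13 paralog pairs, with 1 point per clone sum (circles, ESC; triangles, neural cells; blue, R42A; red, MD). Values of Gatad2b/Gatad2a, Mbd2/Mbd3 and Ruvbl1/Ruvbl2 in ESC split by library series, and those of Chd3/Chd4, Baz2b/Baz2a and Hdac2/Hdac1 split by stage.

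Other genes of the same complexes were counted from lists chosen with earlier results of these data known. The shares of all genes called were 36.5% in ESC between genotypes and 78.3% and 81.3% between stages, and the counts of these lists were not tested against them. Of 11 INO80 subunits, 0 were higher and 5 lower in MD ESC, and from ESC to neural cells 4 rose and 5 fell in R42A and 4 rose and 4 fell in MD. The deubiquitinase Uchl5 fell by 1.14 ± 0.09 and 1.68 ± 0.10 on the log2 scale. Ino80b had changes of 1.75 ± 0.08 and 1.82 ± 0.08 against the first series, and of 0.06, not called, and 0.34 against the second. Of 16 SRCAP and TIP60 subunits, 8 rose and 4 fell from ESC to neural cells in each genotype. Vps72 (YL1), the H2A.Z chaperone of both complexes, rose by 1.26 ± 0.07 and 1.15 ± 0.07, and Actr6, an actin-related subunit of SRCAP, fell by 1.37 ± 0.08 and 1.09 ± 0.08.

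Of 10 factors that associate with NuRD, 5 rose and 4 fell in R42A and 5 rose and 5 fell in MD from ESC to neural cells. Zfp296, a zinc finger protein of the ESC complex, fell by 5.29 ± 0.16 and 5.71 ± 0.16 on the log2 scale. Sall2 rose by 4.99 ± 0.23 and 3.16 ± 0.21, and was also higher in MD ESC by 1.40 ± 0.20. Bcl11a, a transcription factor that binds NuRD, was higher in MD neural cells by 1.61 ± 0.38, a call lost without label 09 (1.60) or 30 (1.62) and with each chromosome scaled separately (1.17). Sall4, the family member known for its role in ESC, fell by 1.59 ± 0.13 in MD. Of 15 further SNF2 ATPases, 4 rose and 9 fell in R42A and 6 rose and 9 fell in MD. Smarca2 (BRM), an ATPase of SWI/SNF itself, rose by 5.29 ± 0.16 and 4.54 ± 0.16. It was higher in MD ESC by 1.08 ± 0.33, a call lost without A04 (1.09), 09 (1.10), A01 (0.92) or A02 (1.07), and at 0.62 without clone 45. Hltf, which acts at stalled replication forks, fell between stages by 1.57 ± 0.06 and 1.43 ± 0.06. Of 8 partners of ISWI, ATRX, HELLS and CHD4, 3 rose and 3 fell in R42A and 3 rose and 5 fell in MD, with Adnp, a partner of CHD4, higher by 1.03 ± 0.25 and 1.26 ± 0.25, the MD call being lost without 09 (1.19) or 30 (1.34).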

How the data were processed

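RNA-seq of total RNA was measured in 32 libraries. The authors deposited 1 table of expected counts per library, not normalised, and 1.46% to 1.70% of genes were not whole (tolerance 1e-06). Trim Galore 0.60, STAR 2.7.1a, RSEM 1.3.0, DESeq2 and mm10 are named in the submitters' processing notes, which do not give roles, strand use or the handling of shared reads, so overlapping genes and near-identical copies are uncertain. Positions came from GENCODE M21.

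Expected counts were rounded, summed per clone and tested with edgeR 4.0.16 quasi-likelihood (R 4.3.3; TMM, minimum count 10, Benjamini-Hochberg over all genes, called under 0.05). ESC were fitted with library series as a term, and the other comparisons in 1 fit of 4 groups on the labels A04, A10, 09 and 30. Levels are CPM on TMM library sizes. The fits were tested on simulated data with 50 changed genes at each fold, all with a mean count over 100. All other genes had no genotype effect, so whole-chromosome shifts were left out, and each sum was drawn independently. The real libraries differ in these points, so the rates below may not hold for them. Of the simulated calls, 6.43% were false for MD against R42A in ESC, 9.6% in neural cells and 10.47% for the difference between stages. Each share was above the 0.05 set for calls. In the same order, 14%, 2% and 2% of 1.25-fold changes were recovered, and 72%, 56% and 10% of 1.5-fold changes. Of 4-fold changes, 96%, 94% and 78% were recovered. Small changes can therefore be missed in these comparisons. Alternatives included DESeq2 1.42.0, limma voom 3.58.1, scaling each chromosome with at least 100 tested genes separately, and leaving out each clone. Clone labels pair ESC with neural cells, but their deviations from the group mean correlated at only -0.10 in R42A and 0.03 in MD.

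All members were described. Those called most, differing between stages, in paralog pairs or on chromosomes 8 and 11 were given by sample, and related genes only where called with a log2 change of at least 1. Members and lists were chosen with earlier results of these data known.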

Additional observations from a re-analysis of the deposited data

Results flagged for a closer look

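A sample stood far from the other 3 of its group in 5 of 148 groups of 4 tested (3.38%), where chance gives about 5%. These were Chd3 in R42A ESC clone A02 at 22.8 CPM and in MD ESC clone 45 at 62.8 CPM, Chd4 in R42A ESC clone A04 at 677 CPM, Chd7 in neural MD library 1 of label 30 at 289 CPM, and Baz1a in neural MD library 2 of label 30 at 54.9 CPM.

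The MD effect differed between neural cells and ESC by the test of the difference itself for 14 members. On the log2 scale, neural less ESC, the difference was 2.31 for Chd5, 0.76 for Baz2b, 0.73 for Chd2 and 0.33 for Chd9. It was -0.63 for Baz1a, -0.62 for Mbd3, -0.51 for Mta1, -0.46 for Chd1, -0.45 for Chd7, -0.43 for Chd4, -0.39 for Hells, -0.38 for Rbbp7, -0.33 for Bptf and -0.22 for Cecr2. Against second-series ESC the Baz2b and Cecr2 differences were not called, at 0.34 and -0.19. None of the 14 was called without label 09 or without label 30, or with the neural libraries summed.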

How the results depend on the processing

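The 116 called changes of members gave 1395 values under alternatives that kept direction and call, 230 that lost the call and 15 that turned. In ESC, members called higher in MD went from 7 to 13 with libraries as replicates and no replicate block, 12 with the replicate block, 2 without the series term and 3 in the first series alone. Members called lower went from 11 to 6 with each chromosome scaled separately, 3 without the series term, and 0 and 5 in the first and second series alone. Over all genes, 7862 were called, against 3084 without the series term and 1769 and 4878 in each series alone. In neural cells, neural sums fitted alone gave 12 higher members, and summing the neural libraries gave 0 higher and 0 lower, and 0 and 0 for the difference between stages. Over all genes these comparisons called 8030 and 5472, against 1600 and 77 without label 09, 1538 and 114 without label 30, and 0 and 0 with libraries summed; neural sums alone called 13643, and the difference between stages called 8759 without A04.

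Leaving out 1 clone or label gave 7 to 8 higher and 8 to 11 lower members in ESC, 2 to 9 and 0 to 14 in neural cells, and 0 to 6 and 0 to 18 for the difference between stages. From ESC to neural cells it gave 14 to 15 higher and 14 to 17 lower in R42A, and 11 to 14 and 14 to 21 in MD. Where 1 label was left, it was assumed to vary like the other groups.

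With each chromosome scaled separately, 5 called and 13 uncalled changes of members turned. The called were Chd9 0.227, Smarca5 0.0144 and Gatad2a 0.0732 in MD ESC, Bptf -0.0258 in MD neural cells and Bptf 0.0276 from ESC to neural cells in R42A, and the uncalled included Chd3 -0.0373 in MD neural cells and Chd5 0.176 from ESC to neural cells in MD. Against second-series ESC 10 called and 8 uncalled changes turned; the called were, in R42A, Chd8 0.0201, Bptf 0.171, Mbd3 -0.0594, Gatad2b 0.222 and Rbbp4 0.0909, and, in MD, Chd1 0.312, Chd8 0.212, Atrx 0.0733, Mbd3 -0.395 and Gatad2b 0.125. The MD change of Chd5 from ESC to neural cells, near 0, also turned to 0.0035 in limma voom, 0.0137 with libraries as replicates and no replicate block and 0.0483 with neural libraries summed, and ran from -0.0991 without label 09 to 0.0997 without label 30. The cause was not tested.

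Library numbers were not taken to pair libraries, since the labels give no shared source and deviations of same-numbered libraries correlated at -0.708 to 0.801 (median 0.195) in first-series ESC, -0.0959 to 0.797 (0.331) in second-series ESC and -0.0458 to 0.387 (0.174) in neural cells. Other pairs had medians of -0.106, -0.117 and -0.174, and 10 of 12, 10 of 12 and 8 of 8 libraries correlated best with their own number. Deviations were taken from the clone's own mean, so they cancel out within a clone, and the contrast with other pairs is partly fixed. With 2 neural libraries a label they are mirror images, so the neural values of other pairs repeat the same-numbered ones with the sign turned. Whether the numbers share something cannot be decided from these values. The clone label as a replicate block called 29 members in R42A and 33 in MD between stages and 12 for the difference, and with A04 and A10 crossed, an alternative chosen after seeing the data, it called 29, 33 and 12. No paralog pair passed in any alternative, but within library series none could, since the exact permutation test allows no p below 0.0556 there. With clones exchanged across series (70 assignments), the smallest possible p in that test was 0.0286. The lowest adjusted p reached was 0.186.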
